A study of Mus musculus with 13 samples.

Results

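Skeletal muscle of mice lacking the microRNA cluster miR-181a2b2 was compared with muscle of floxed control mice, both kept on chow. The comparison used 6 of the 13 RNA sequencing libraries of the series, chosen by their titles. The 3 control libraries, replicates 2, 3 and 4, are homozygous for the floxed cluster (miR-181a2b2flox/flox), and the titles call them WT. The 3 KO libraries, replicates 1, 2 and 3, are miR-181a2b2-/-. The other 7 libraries are 4 flox and 3 KO libraries on a second diet labelled HFSC, which the labels do not spell out. The series describes the knockout as systemic and names no Cre driver. Nothing states that each library came from a separate animal. The p-values therefore measure the spread between libraries, pooled over all 13, which may be technical. The series also mentions hindlimb ischaemia without saying which limb or time a library represents, so the state of the muscle sampled is not known here. The extraction text speaks of white adipose tissue. All 16 skeletal muscle marker genes were detected, with summed levels of 67030 to 126900 CPM in flox (CPM are counts scaled to a common library size) and 114500 to 133000 CPM in KO, against 3512 to 3988 and 2649 to 3621 CPM for 13 adipocyte markers.

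MicroRNAs guide silencing complexes to messenger RNAs that pair with the seed, bases 2 to 8 of the mature strand, and lower the level or translation of those messages. The miR-181 family is made from several gene clusters and is best known for setting signalling thresholds in lymphocytes and for restraining inflammation in endothelium and macrophages. In muscle it has been studied in regeneration and mitochondrial turnover. The deleted hairpins lie on chromosome 2 of GRCm38, Mir181a-2 at chr2:38852735-38852810 and Mir181b-2 at chr2:38853830-38853918, both on the plus strand and both inside Nr6a1, which runs on the opposite strand. The mature strands of the deleted pair and of the 2 sister miRNAs on chromosome 8 are shown because their main strands carry the same seed. Capitals mark bases 2 to 8 and the sequences are from RefSeq (GRCm38.p6).
miR-181a-5p: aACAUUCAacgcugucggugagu
miR-181b-5p: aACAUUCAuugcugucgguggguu
miR-181a-2-3p: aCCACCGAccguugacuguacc
miR-181b-2-3p: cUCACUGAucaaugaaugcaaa
miR-181c-5p: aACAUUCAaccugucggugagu
miR-181d-5p: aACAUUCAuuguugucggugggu
A second copy of the main strands is encoded by Mir181a-1 and Mir181b-1 on chromosome 1, so loss of the chromosome 2 cluster leaves other sources of the same seed in the genome. The libraries were made from polyadenylated RNA and do not measure mature miRNAs: the hairpin of Mir181a-2 had 2, 1 and 0 reads in the flox libraries and 0 in each KO library, and Mir181b-2 had 0 in all 6. The deletion could therefore not be checked from these counts.

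The 6 chow libraries held 27836389 to 34186980 counts each. Flox replicates 2 and 3 stood apart from the other 4 libraries. The first principal component carried 75.3% of the variance and placed them at -61.3 and -100.7, against 25.8 for flox replicate 4 and 23.8 to 63.9 for the KO libraries. They also had more genes with at least 10 counts (16520 and 16768, against 14286 to 15304) and smaller mitochondrial shares (6.15% and 6.59%, against 7.99% to 9.22%). The value of every flox library is therefore given for the main genes below, to show whether flox replicate 4 differed from KO as well. In bulk tissue fewer cells of a type and less RNA per cell cannot be told apart. Between 2 libraries of a group the chi-square per degree of freedom was 47.5 to 193 in chow flox and 10.5 to 69.6 in the other groups. The tests below pool the spread over all groups, which may understate that of chow flox.

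Of 16496 genes tested, 228 (1.38%) were higher and 1670 (10.1%) lower in KO at an adjusted p under 0.05 (edgeR quasi-likelihood test across all 13 libraries, Benjamini-Hochberg adjustment). All 3 KO libraries lay beyond all 3 flox libraries, called or not, in 1801 genes on the high side (10.9%) and 2287 on the low side (13.9%). Both conditions were met by 222 higher genes (1.35%) and 1216 lower genes (7.37%). Where a called gene overlapped, the overlap came from flox replicate 4: it was the only flox library within or past the KO range in 6 of 6 higher and 453 of 454 lower genes. The size of the difference also depended on the flox library. For the called lower genes the KO mean lay 1.53 below flox replicate 2, 2.04 below flox replicate 3 and 0.441 below flox replicate 4 on the log2 scale at the median. For the called higher genes it lay 0.694, 0.869 and 0.303 above them. A difference of at least 1 on the log2 scale against every flox library was found in 212 of the called lower and 12 of the called higher genes. A fit of the 6 chow libraries alone called 1 gene higher, Gm28438, and 1 lower, mt-Nd3, both described below. Adding the replicate number to the fit of all 13 libraries left 0 calls. The counts rest on few libraries. Without flox replicate 2 they were 5 higher and 447 lower, without flox replicate 4 they were 3534 and 3727, without KO replicate 1 they were 56 and 873, and without flox replicate 3, KO replicate 2 or KO replicate 3 no gene passed, so every list count below is 0 in those 3 fits.

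**Figure D1:**
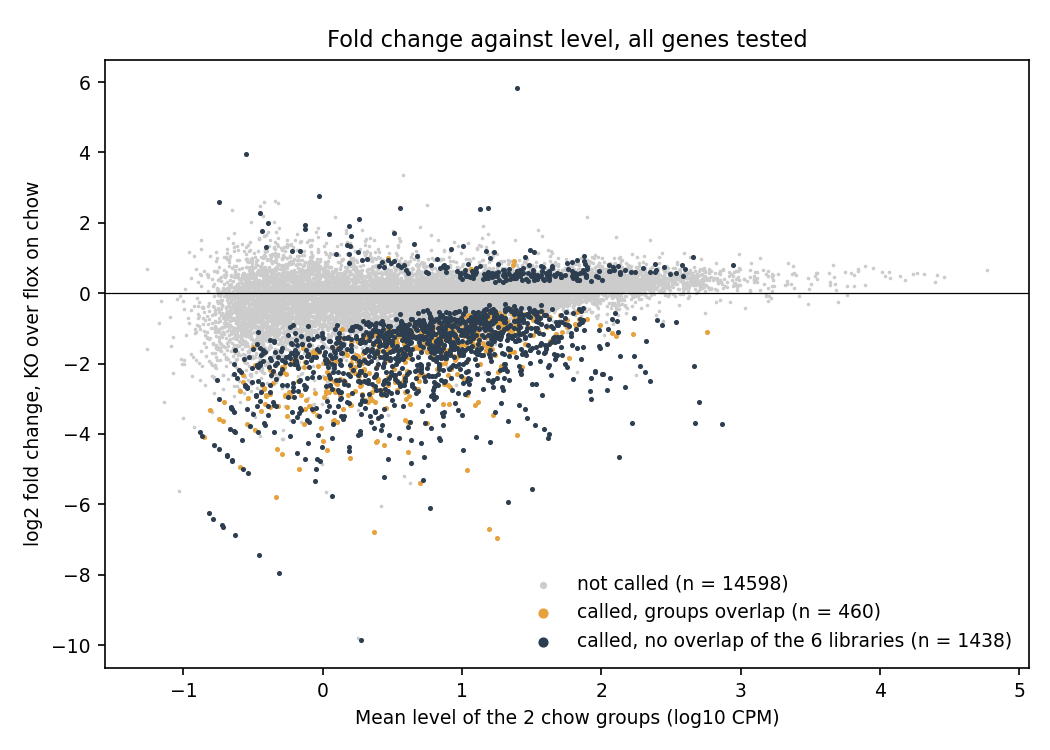
Each point is a gene, placed by the mean of its flox and KO levels on chow (log10 CPM) and its log2 fold change, KO over flox. Called genes without overlap (dark) and called genes whose groups overlap (orange) lie mostly below 0, and the called higher genes form a narrow band, mostly under a log2 fold change of 1.

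The lists below were chosen with earlier results of these data known, so the shares of all genes beside them are a description and not a test. Genes that break down branched-chain amino acids formed the largest group of higher genes among the lists examined. Of 23 tested members 7 rose, each without overlap, and none fell, against the 1.38% of all genes. The median of the list was 0.38 on the log2 scale, beside -0.01 for all genes. Aldh6a1, which handles the end of valine breakdown, was at 139, 119 and 198 CPM in flox and at 265, 243 and 241 CPM in KO (log2 fold change 0.72 ± 0.17 SE, adjusted p = 0.0246). Flox replicate 4 was the highest flox library and still lay below all KO libraries.
Bckdhb and Dbt encode subunits of the branched-chain keto acid dehydrogenase, the committed step. Bckdhb was at 19.2, 16.3 and 22.8 CPM in flox and at 32.5, 29.1 and 28.4 in KO (0.63 ± 0.13, adjusted p = 0.0182). Dbt was at 30.4, 21.5 and 35.98 CPM against 45.4, 46.7 and 44.7 (0.64 ± 0.17). The groups did not overlap in either gene.
Pcca, a subunit of propionyl-CoA carboxylase, rose by 0.73 ± 0.21, Acat1, the mitochondrial acetoacetyl-CoA thiolase, by 0.62 ± 0.17 and Acadsb, a dehydrogenase of the isoleucine branch, by 0.59 ± 0.15. The seventh, Hsd17b10, rose by 0.41 ± 0.12. The call of this group depends on the scaling. When libraries were scaled to their plain totals and not by TMM, which moves the median of all genes from -0.01 to -0.35, 3 members passed as higher and 1, Bcat1, as lower, and the median was 0.07. It depends on the libraries too: none of the 23 passed as higher without flox replicate 2, 1 without KO replicate 1 and 19 without flox replicate 4.

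Lipid genes rose in part. Lpl, lipoprotein lipase, which releases fatty acids from circulating triglyceride at the vessel wall, was the most abundant gene among those higher without overlap. It was at 532, 596 and 802 CPM in flox and at 1126, 1145 and 1102 CPM in KO (0.81 ± 0.19, adjusted p = 0.0246). All KO libraries lay above all flox libraries, with flox replicate 4 between the other flox libraries and KO. On the list of 31 genes that take up and burn fatty acids, 5 rose and none fell, against 1.38% of all genes called higher (median 0.45): beside Lpl these were Hadhb, a subunit of the trifunctional protein of beta oxidation (243.6, 224 and 359 CPM against 396, 439.6 and 401), Slc25a20, the mitochondrial carnitine carrier (0.58 ± 0.17), Echs1, enoyl-CoA hydratase (0.46 ± 0.13), and Mlycd, malonyl-CoA decarboxylase (0.45 ± 0.13). With library totals 1 of the 31 passed as higher, Lpl, and 2 as lower. None of the 31 passed without flox replicate 2, 1 rose without KO replicate 1, 26 without flox replicate 4 and 15 with DESeq2.
Among 19 genes of fatty acid and triglyceride synthesis the members moved both ways: 3 rose and 2 fell, beside 1.38% and 10.1% of all genes. The falls were thus near the share of all genes, and 0 of the 19 passed without flox replicate 2. Dgat2, which makes triglyceride, rose by 1.07 ± 0.32, Srebf1, the lipogenic transcription factor, by 0.69 ± 0.18 and Gpam, the first acyltransferase of glycerolipid synthesis, by 0.60 ± 0.17. Elovl5, a fatty acid elongase, fell by 0.88 ± 0.21 and Acly, ATP citrate lyase, by 0.69 ± 0.19. Acly was at 29.2 and 29.4 CPM in flox replicates 2 and 3 but at 16.5 in flox replicate 4, next to 16.2, 15.1 and 15.1 in KO.
Of 22 cholesterol genes 2 rose and 0 fell, against 1.38% and 10.1% of all genes. They were Fdft1, squalene synthase (35.5, 31.7 and 62.6 CPM against 79.6, 73.3 and 84.5), and Hsd17b7 (1.19 ± 0.36). Without flox replicate 2, 0 of the 22 passed.

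Single genes of glucose handling rose. Tbc1d4, the Akt substrate that holds back glucose transporter vesicles until insulin acts, was at 52.3, 52.0 and 72.6 CPM in flox and at 93.5, 106.5 and 93.8 in KO (0.73 ± 0.16, adjusted p = 0.0203), the only call among 23 genes of insulin signalling and glucose uptake. Gyg, glycogenin, the primer of glycogen synthesis, was at 237, 198 and 402 CPM against 482, 471 and 501 (0.80 ± 0.21). Pgm2 (-1.29 ± 0.38) was the 1 member of the 19 glycogen genes that fell. Of 22 glycolysis genes Pgam1 fell (-0.93 ± 0.25) and no other passed.
Other higher genes of the fibre and its mitochondria were Fbxo32, the muscle ubiquitin ligase atrogin-1 (267.5, 200.5 and 433 CPM against 510.5, 669 and 660.5), and Chchd10, a protein of the mitochondrial intermembrane space (300.4, 249 and 358 CPM against 411, 542 and 518). Suclg2, a subunit of succinyl-CoA ligase, was the single call among 22 genes of the tricarboxylic acid cycle (0.56 ± 0.14). Tfb2m, a mitochondrial transcription factor, rose by 0.56 ± 0.16, Hspe1, the mitochondrial co-chaperonin, by 0.53 ± 0.14 and Bhlhe41, a clock repressor, by 0.67 ± 0.17. The lists of 25 atrophy, FoxO and autophagy genes, 19 clock genes and 19 PGC-1 and ERR genes had 1 call each, beside 1.38% of all genes called higher. Of 19 tested genes of the integrated stress response 2 rose and 1 fell, 11 had negative fold changes and the median was -0.11. Atf4, the transcription factor of that response, rose by 0.53 ± 0.14 and its target Eif4ebp1 by 0.53 ± 0.15, while Pck2, another gene of that list, fell by 0.96 ± 0.21. With library totals Suclg2, Tfb2m, Hspe1, Atf4 and Eif4ebp1 no longer passed.
Nnt, the mitochondrial transhydrogenase that makes NADPH, was at 182, 173 and 277 CPM in flox and at 353, 376 and 327 in KO (0.74 ± 0.17, adjusted p = 0.0213). Gstm2, a glutathione transferase, rose with it (0.81 ± 0.20), and Sod3, the extracellular superoxide dismutase, and Gpx1, glutathione peroxidase, fell (-1.38 ± 0.36 and -0.70 ± 0.21). Gstm2, like Srebf1 and Gpam above and Nfkbib, Bmp6 and Fgf2 below, did not pass with library totals.

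The higher genes with the widest gap between the groups were mostly of low level. The gap is the distance in log2 CPM between the nearest flox and KO libraries. Among genes of at least 1 CPM in a group, without predicted genes and clone names, Ly6g6d had the widest (1.19), at 0.247, 0.294 and 0.381 CPM in flox and 0.955, 1.24 and 1.34 in KO. Htra4, a secreted serine protease, was at 2.13, 2.46 and 8.54 CPM against 21.5, 17.1 and 28.8 (2.38 ± 0.61, adjusted p = 0.0296). Cdh4, R-cadherin, a cell adhesion molecule on chromosome 2, was at 3.22, 2.86 and 8.57 CPM against 29.3, 16.5 and 32.2 (2.43 ± 0.46, adjusted p = 0.0167). In both genes flox replicate 4 was the highest flox library and still lay under the lowest KO library.
Among the rest, B3galt1, a galactosyltransferase, was at 1.46, 2.38 and 3.74 CPM against 6.58, 6.35 and 6.68. Plet1os, an antisense transcript, was at 1.16, 0.721 and 2.71 CPM against 4.95, 4.92 and 4.96. Gnmt, glycine N-methyltransferase, was uneven within KO, at 4.16, 1.76 and 1.34 CPM against 0.686 to 0.866 in flox. Tecta, Platr31, Slc16a8, Zfp454, Adig and Zfp97 completed the 12 with the widest gaps, with log2 fold changes of 0.81 to 1.82.
Klhl38, Macrod2, Rab3ip and Magix were 4 of the 6 called higher genes whose groups overlapped. In each of the 4, 1 KO library lay below flox replicate 4: Rab3ip, for example, was at 22.0 CPM in flox replicate 4 and at 21.9 CPM in KO replicate 1.

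**Figure D2:**
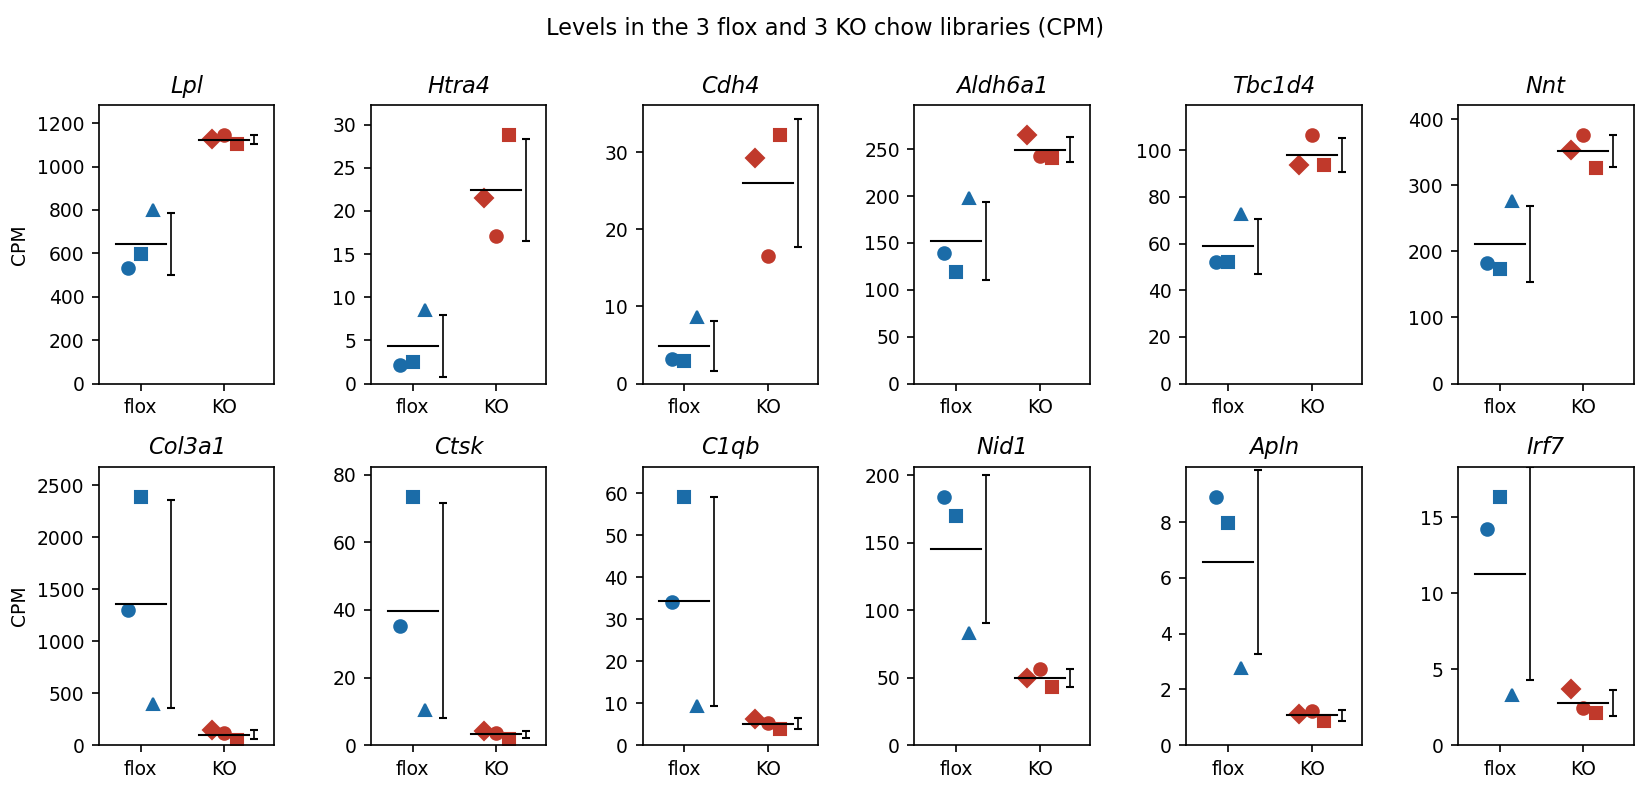
Levels of 12 genes in each chow library (CPM, linear axes from 0); points are libraries (circle replicate 2, square replicate 3, triangle replicate 4, diamond replicate 1), lines are group means and bars are SD (n = 3). Flox replicate 4 lies between flox replicates 2 and 3 and the KO libraries in the plotted genes except Irf7, where its 3.28 CPM is below the 3.72 CPM of KO replicate 1.

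Extracellular matrix genes were the lower group in which all 3 flox libraries differed most often from KO. Fibrillar collagens build the interstitial matrix around fibres and are made mainly by fibroblasts. Of 20 fibroblast and fibrillar matrix genes 19 fell, all 19 without overlap, against 10.1% and 7.37% of all genes. Col3a1, type III collagen, was at 1305, 2389 and 392.3 CPM in flox and at 142, 113 and 53.7 CPM in KO (-3.73 ± 0.54, adjusted p = 0.0154). The lowest flox library was well above the highest KO library, a gap of 1.47 on the log2 scale.
Col1a1 was at 813, 1646 and 185 CPM against 85.7, 81.2 and 37.7, and Col1a2 at 877, 1558 and 261 against 118, 123 and 72.0. Pdgfra, a receptor that marks fibroblast progenitors, fell less, from 36.6, 36.3 and 24.5 CPM to 14.5, 14.6 and 11.03 (-1.28 ± 0.18). The summed level of the 20 markers was 2025 to 10020 CPM in flox and 699 to 1087 CPM in KO. Without flox replicate 2, and also without KO replicate 1, 18 of the 20 passed as lower. In the fit of the 6 chow libraries alone 0 of the 20 passed.

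Basement membrane genes, which encode the sheet of type IV collagen and laminin around fibres and capillaries, fell in 11 of 16, all without overlap. The shares of all genes, here and for the matrix lists that follow, were 10.1% lower and 7.37% lower without overlap. Nid1, nidogen, which links the laminin and collagen networks, was at 184, 170 and 83.0 CPM in flox and at 49.9, 56.7 and 43.4 in KO (-1.54 ± 0.24, adjusted p = 0.0154). Col4a1 was at 372, 390 and 151 CPM against 73.0, 89.9 and 56.7, and Col4a2 and Lamb1 fell by 1.79 ± 0.28 and 1.47 ± 0.24. Flox replicates 2 and 3 were close to each other in these genes and flox replicate 4 was well below them and above KO.
Of 20 genes of elastic fibres and proteoglycans 19 fell, 18 without overlap (median -1.52). Mfap4, a microfibril protein, was at 43.9, 41.2 and 8.65 CPM against 3.58, 3.72 and 1.72 (-3.37 ± 0.51). Eln, elastin, was at 109, 91.2 and 40.9 CPM against 23.5, 24.9 and 23.1, and Fbln7 and Ogn fell by 1.83 ± 0.24 and 1.07 ± 0.20.
Tendon and myotendinous junction genes fell in 8 of 14, 7 without overlap. Col12a1 was at 41.2, 136 and 8.27 CPM in flox and 5.36, 5.04 and 3.36 in KO, and Thbs4 at 205, 141 and 78.3 against 48.4, 55.1 and 47.1. The summed level of the 14 was 191 to 556 CPM in flox and 132 to 162 CPM in KO, and the part that the tendon content of a sample had in these differences was not tested.
Matrix remodelling genes went the same way. Of 20 metalloproteinases and inhibitors 13 fell, 12 without overlap. Mmp2, gelatinase A, was at 143, 220 and 63.7 CPM against 34.2, 30.3 and 16.2 (-2.40 ± 0.37, adjusted p = 0.0154), and Timp2, an inhibitor of metalloproteinases, at 173, 255 and 110 against 86.6, 88.7 and 76.0 (-1.10 ± 0.24). Mmp12, the macrophage elastase, ranged widely, at 27.8, 155.5 and 3.66 CPM in flox and 0.959 to 1.84 in KO. These other matrix lists lost more calls than the fibrillar list when a library was left out. Without flox replicate 2 the lower genes were 7 of 16 for basement membrane, 10 of 20 for elastic fibres, 2 of 14 for tendon and 7 of 20 for metalloproteinases. Without KO replicate 1 they were 10, 14, 3 and 7.

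**Figure D3:**
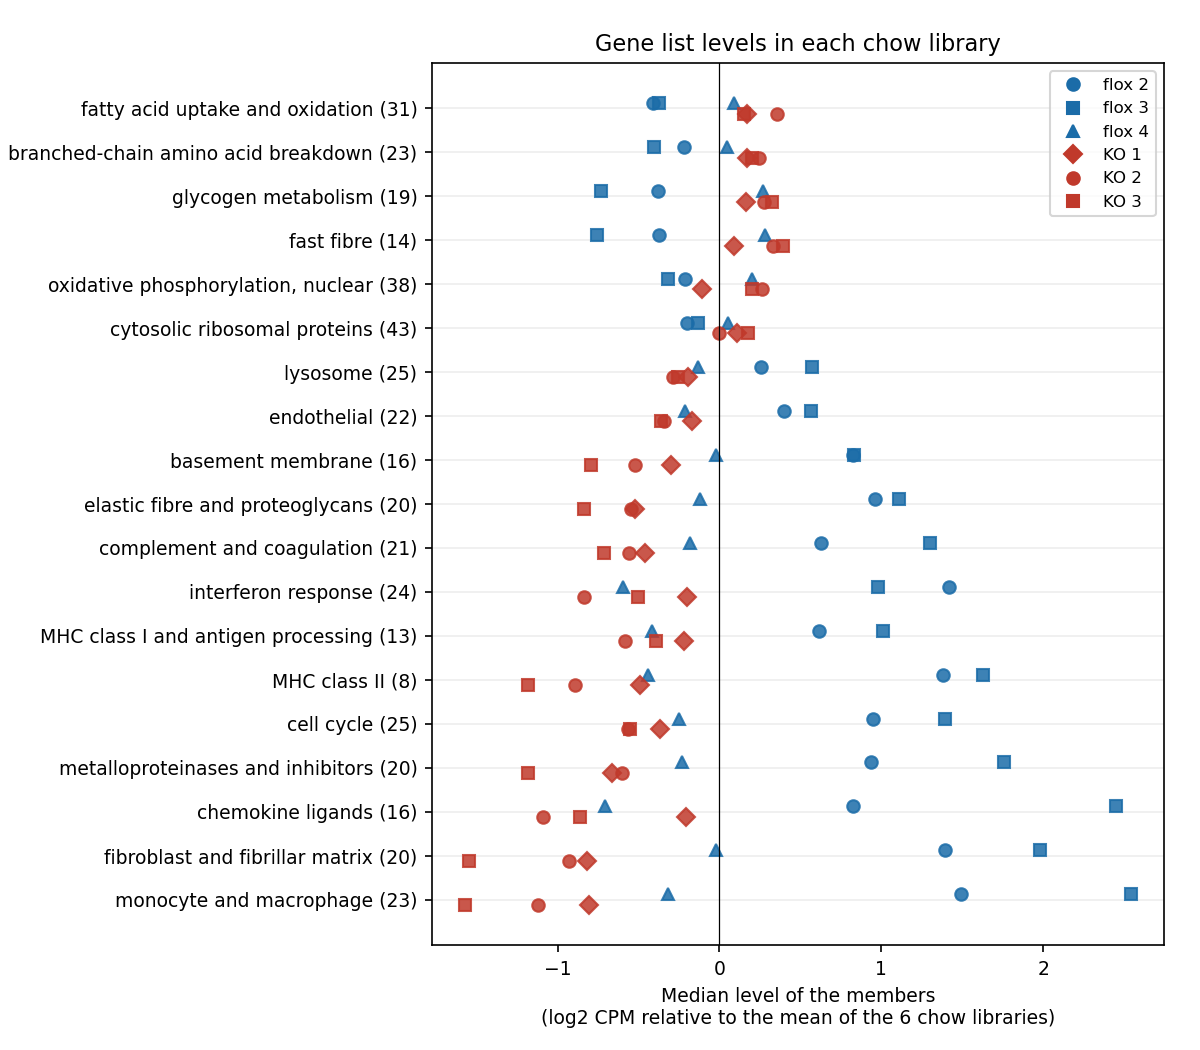
Median level of the tested members of 19 gene lists in each chow library, in log2 CPM relative to the mean of the 6 libraries (flox blue, KO red; the number tested is in brackets). In the matrix and macrophage lists flox replicate 4 lies between the other flox libraries and KO, while in the interferon and MHC class I lists it lies within the KO range.

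Macrophage genes fell in 20 of 23, 17 without overlap. The shares of all genes, here and for the leukocyte list below, were 10.1% lower and 7.37% lower without overlap. Csf1r, the receptor for the growth factor CSF1, was at 33.3, 55.8 and 12.1 CPM in flox and at 7.64, 6.83 and 4.52 in KO (-2.41 ± 0.40, adjusted p = 0.0154). Ms4a7, a marker of macrophages that enter or reside in inflamed tissue, was at 9.85, 17.9 and 1.45 CPM against 0.580, 0.679 and 0.259. The summed level of the 23 markers was 198 to 1432 CPM in flox and 116 to 196 CPM in KO, so the nearest libraries almost touched in the sum, and no marker was at 0 in either group.
Lymphocyte and other leukocyte genes fell in 6 of 14, of which 2, Il7r and Cd8a, did so without overlap. The summed level of the 17 genes on this list, tested or not, was 16.5 to 101.5 CPM in flox and 13.6 to 15.3 CPM in KO. Without flox replicate 2, 1 of the 14 passed as lower, and without KO replicate 1 it was 2.
Called lower genes whose groups overlapped included Cybb, the catalytic subunit of the phagocyte oxidase, Ptafr, Cyth4 and Nckap1l. Cybb was at 24.7 and 41.9 CPM in flox replicates 2 and 3, but at 3.89 in flox replicate 4, under the 3.96 of KO replicate 1. For such genes the data show a difference of KO from flox replicates 2 and 3 only.

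Complement and coagulation genes fell in 16 of 21, each without overlap (median -1.23). The first complement component C1q was lower in all its chains, C1qb at 34.2, 59.1 and 9.34 CPM against 6.31, 5.19 and 3.79 (-2.74 ± 0.49, adjusted p = 0.0154). C1qa, C1qb and C1qc are also on the macrophage list. The other members were not macrophage markers. Serpinf1, a secreted inhibitor of vessel growth, was at 71.7, 79.6 and 30.5 CPM against 18.2, 22.7 and 15.9 (-1.68 ± 0.28), and C1s1 and the tissue factor gene F3 fell by 1.42 ± 0.29 and 1.23 ± 0.26. F7, coagulation factor VII, was among the 12 lower genes with the widest gap, at 0.767, 5.88 and 0.267 CPM in flox and 0 to 0.0682 in KO.
Lysosomal genes fell in 12 of 25, 11 without overlap. Ctsk, the collagen-degrading cathepsin K, was at 35.3, 73.4 and 10.3 CPM against 4.06, 3.52 and 1.94 (-3.64 ± 0.57, adjusted p = 0.0154), with a gap of 1.33. Lgmn, legumain, was at 80.3, 143 and 46.9 CPM against 32.6, 35.0 and 30.03, and Grn, progranulin, at 64.9, 115 and 24.4 against 18.4, 17.2 and 13.96. Ctsb, the most abundant of the 12, changed least (396, 643 and 269 CPM against 241, 257 and 247).
Genes of protein folding in the endoplasmic reticulum fell in 5 of 26, each without overlap, beside 10.1% and 7.37% of all genes: Pdia3, Pdia4, Pdia6, Manf and Sec61a1, with log2 fold changes of -0.93 to -0.45. Without flox replicate 2, 7 of the 21 complement and coagulation genes, 6 of the 25 lysosomal genes and 17 of the 23 macrophage genes passed as lower, and none of the 26 folding genes did.

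Interferon and antigen presentation genes fell against flox replicates 2 and 3 but mostly not against flox replicate 4. Of 24 interferon response genes 12 fell, of which 2, Mx2 and Irf9, did so without overlap. Without flox replicate 2 none of the 24 passed, and without flox replicate 4 it was 22. Irf7, the transcription factor that drives the response, was at 14.2, 16.3 and 3.28 CPM in flox and at 3.72, 2.48 and 2.11 in KO. Of 13 genes of MHC class I and antigen processing 8 fell, 2 without overlap (Tapbp and Psmb10), and none passed without flox replicate 2 and 1 without KO replicate 1. The shares of all genes were 10.1% and 7.37%. B2m, the light chain of class I molecules, was at 136, 180 and 66.0 CPM against 76.2, 59.3 and 67.2.
MHC class II differed from these lists in its counts, with 4 of 8 genes lower without overlap. H2-Aa was at 55.9, 60.3 and 15.4 CPM against 11.2, 9.11 and 6.68 (-2.28 ± 0.39, adjusted p = 0.0154), and Cd74, the invariant chain, at 122, 119 and 35.5 against 27.6, 21.9 and 14.5. Of 16 chemokine ligands 6 fell, 4 without overlap: Ccl6, Ccl9, Pf4 and Cx3cl1. Some inflammatory genes left out by the low-count filter had reads almost only in flox replicate 3. Il1b had 411 reads there, Cxcl2 211 and S100a8 442, against 0 to 2, 0 to 2 and 0 to 9 in the other chow libraries. Ccl19 and Ppbp, also left out, did not stand out there (0 and 10 reads). The part of that library in the immune differences was not tested. Among cytokine genes Il1rn, the interleukin 1 receptor antagonist, was at 0.891, 14.96 and 0.229 CPM against 0.0862 to 0.171, so flox replicate 3 alone set its mean. Nfkbib, an inhibitor of NF-kB, rose (15.2, 14.5 and 18.9 CPM against 23.6, 23.2 and 22.8).

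Cell cycle genes fell in 11 of 25, 8 without overlap, against 10.1% and 7.37% of all genes, and 5 of the 25 had positive fold changes. The summed level of the 25 did not fall, at 311, 284 and 384 CPM in flox and 359, 412 and 435 CPM in KO. Without flox replicate 2 the lower genes were 4, and without KO replicate 1 they were 6. The members named here were at low levels. Top2a, the topoisomerase of dividing cells, was at 4.63, 6.81 and 0.610 CPM in flox and at 0.477, 0.3596 and 0.215 in KO (-3.49 ± 0.73, adjusted p = 0.0189). Cdk1 was at 1.21, 1.79 and 0.305 CPM against 0 to 0.136. Cdkn2a, the p16 and p19 tumour suppressor locus and a senescence marker, had one of the widest gaps (1.75), at 2.23, 1.31 and 0.724 CPM against 0.171, 0.120 and 0.0431 (-3.60 ± 0.61, adjusted p = 0.0154).
Other lower genes with wide gaps were Mcub, an inhibitory subunit of the mitochondrial calcium uniporter (1.61, 3.47 and 0.953 CPM against 0.273, 0.160 and 0.215), Rtl1, an imprinted gene of the Dlk1 region (1.16, 1.98 and 0.496 against 0.136, 0.0400 and 0.129), Upp1, uridine phosphorylase (1.26, 3.42 and 0.572 against 0.102, 0.0400 and 0.172), Chil3, a product of alternatively activated macrophages (1.01, 1.58 and 0.877 against 0.205, 0.160 and 0.259) and Stap1, Chga and Cthrc1. All were under 20 CPM in every library.
Actc1, the cardiac actin of embryonic and regenerating fibres, was at 419, 391.7 and 203 CPM in flox and at 92.02, 68.6 and 54.9 in KO (-2.23 ± 0.56, adjusted p = 0.0276), the 1 member of 14 on its list that passed. Jund, a subunit of AP-1, was at 49.1, 56.8 and 36.7 CPM against 28.6, 24.2 and 25.2 and was the 1 immediate early gene of 21 to fall without overlap.

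Vessel genes moved less than the matrix. Of 22 endothelial markers 5 fell, 3 without overlap: Sox17 (16.9, 16.2 and 15.9 CPM against 9.31, 11.99 and 9.26), Cdh5, VE-cadherin (110, 108 and 61.7 against 58.6, 51.2 and 48.3), and Mmrn2. The shares of all genes were 10.1% and 7.37%, and none of the 22 passed without flox replicate 2, 1 without KO replicate 1 and 17 without flox replicate 4. Sox17 was even across the 3 flox libraries. The summed endothelial level was 894 to 1290 CPM in flox and 913 to 936 CPM in KO and overlapped. Among 17 genes of the VEGF, angiopoietin and apelin families 6 fell. Apln, the peptide apelin of sprouting endothelium, was at 8.91, 7.99 and 2.78 CPM against 1.13, 1.24 and 0.862 (-2.61 ± 0.42, adjusted p = 0.0154), and Angpt2, which destabilises vessels, at 5.54, 7.61 and 3.35 against 1.98, 1.40 and 2.11. Of 16 smooth muscle and pericyte markers 3 fell, Acta2 and Mcam without overlap (-0.94 ± 0.25 and -0.80 ± 0.22), and 0 passed without flox replicate 2. The summed level of the 16 did not fall, at 3223 to 4710 CPM in flox and 4670 to 5186 CPM in KO. No adipocyte, erythroid or keratinocyte marker passed.
Cxcr4, the receptor named in the title of the series, was called lower (-1.86 ± 0.49, adjusted p = 0.0326), at 8.34, 19.6 and 2.94 CPM in flox and 2.90, 2.84 and 2.80 in KO. Flox replicate 4 lay only 0.0172 above the highest KO library on the log2 scale, so the difference was one of KO from flox replicates 2 and 3. Its ligand Cxcl12 (-0.54 ± 0.28, adjusted p = 0.182) and the scavenging receptor Ackr3 (-0.59 ± 0.25, adjusted p = 0.123) did not pass.

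Growth factor and signalling genes were split. Among all genes 1.38% were called higher and 10.1% lower, 7.37% lower without overlap. Among 23 IGF and FGF genes 6 fell and 1 rose: Igf1 was at 54.3, 88.4 and 30.1 CPM against 19.95, 12.7 and 12.4 (-1.94 ± 0.32, adjusted p = 0.0154), Igfbp4 at 99.9, 186 and 48.8 against 34.1, 31.7 and 25.6, and Fgf2 rose by 0.54 ± 0.14. Among 15 CCN and YAP target genes 8 fell, with Axl, a receptor kinase for dying-cell ligands, at 63.4, 62.4 and 31.3 CPM against 23.9, 25.5 and 20.98, and Crim1, a binder of BMPs, rose (0.91 ± 0.26). Of 26 genes of the TGF-beta, BMP and myostatin family 1 rose, Bmp6 (0.78 ± 0.19), and 3 fell, near the share of all genes. Among the 3 only Fstl1, a secreted follistatin relative, fell without overlap (-2.41 ± 0.43). Of 28 Notch, Wnt and R-spondin genes 2 fell, both without overlap, which is not above the 10.1% of all genes called lower. Sfrp1 and Sfrp2, secreted Wnt binders, fell by 2.49 ± 0.42 and 4.10 ± 0.85.
Among 22 cadherin and adhesion genes 7 fell and 1, Cdh4, rose, against 10.1% and 1.38% of all genes. Cdh11, the fibroblast cadherin, was at 10.3, 21.9 and 1.52 CPM against 1.19, 0.719 and 0.431, opposite to Cdh4 in every library pair of the groups.

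The contractile lists of the fibre and the other lists named here had no calls with all libraries, and several had many without flox replicate 4. With all libraries none of the 16 skeletal muscle core genes, 11 slow fibre, 14 fast fibre, 23 calcium handling, 17 neuromuscular junction or 23 ion channel genes passed, and neither did any of 38 nuclear oxidative phosphorylation genes, 43 cytosolic and 30 mitochondrial ribosomal proteins, 31 proteasome subunits or 20 heat shock genes. Ckm, muscle creatine kinase, was at 12700, 9552 and 19660 CPM in flox and at 17900, 21740 and 22120 in KO (0.56 ± 0.26, adjusted p = 0.144). Acta1, skeletal actin, was at 19680, 16570 and 30590 CPM against 23890, 30420 and 29360. Flox replicate 4 lay within or above the KO range in both. Without it, 11 of the 16 core genes, 9 of the 14 fast fibre, 13 of the 23 calcium handling, 20 of the 38 oxidative phosphorylation, 20 of the 30 mitochondrial ribosomal and 21 of the 31 proteasome genes passed as higher. DESeq2 called 10 of the 31 proteasome genes higher with all libraries. The medians were 0.52 for fast fibre, 0.21 for slow fibre and 0.23 for nuclear oxidative phosphorylation genes, and with library totals they were 0.24, -0.12 and -0.09. A missed threshold does not show that these genes were equal: at 3 libraries a group and this spread, small differences were not detectable.

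Mitochondrially encoded genes held the widest gaps of all lower genes. mt-Nd3, a subunit of complex I, was at 23.5, 23 and 44.4 CPM in flox and at 1.40, 1.56 and 1.85 CPM in KO (-4.24 ± 0.83, adjusted p = 0.0178), a gap of 3.59 on the log2 scale that was exceeded by mt-Tg alone. Here flox replicate 4 was the farthest from KO, not the nearest. The other abundant mitochondrial messages did not go with it: mt-Nd1 was at 6671, 6068 and 14910 CPM against 11110, 14610 and 16430 (0.61 ± 0.31, adjusted p = 0.187). mt-Nd4l, whose gene follows mt-Nd3, fell by 1.09 ± 0.31. mt-Tg, the transfer RNA gene just before mt-Nd3, was at 2.97, 2.86 and 5.45 CPM in flox with 0 reads in each KO library, where 3 reads would be 0.102 to 0.129 CPM.
The opposite difference was found in Gm28438, an unprocessed pseudogene at chr1:24612775-24613119 on the minus strand (GENCODE M21, GRCm38), which was examined after its values were seen. It was at 0.767, 0.855 and 0.953 CPM in flox and at 31.8, 56.4 and 59.3 CPM in KO (5.84 ± 1.26, adjusted p = 0.0197), the largest log2 fold change on the high side of all tested genes. It is part of a stretch of chromosome 1 that repeats a run of mitochondrial genes. Its 345 bases differ from those of mt-Nd3 at 1 position, T3C, counted from the first base of mt-Nd3 with the mitochondrial base first. The first 40 bases of both are shown with that position in capitals, mt-Nd3 from chrM:9459-9498 and Gm28438 from chr1:24613080-24613119, minus strand.
mt-Nd3: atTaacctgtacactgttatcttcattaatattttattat
Gm28438: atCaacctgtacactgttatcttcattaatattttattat
Of the other copies compared, Gm28661 for mt-Co2, Gm10925 for mt-Atp6, Gm28437 for mt-Co3, Gm10222 for mt-Nd4l and Gm28439 for mt-Nd4 had 0 differences over the bases compared, and Gm29216 differed from mt-Co1 at 6 of 492. Among them Gm10222 also rose, from 0.767, 0.721 and 1.98 CPM to 4.78, 6.59 and 6.72 CPM (2.41 ± 0.48, adjusted p = 0.0178), opposite to mt-Nd4l, and Gm28437 rose by 1.25 ± 0.33 (adjusted p = 0.0319). mt-Co2, mt-Atp6, mt-Atp8 and mt-Co3 were at 0.534 to 10.1 CPM in the chow libraries while mt-Co1 was at 18940 to 36430 CPM. How the authors' counting treated reads that fit both places is not given in the sources used here, so the values of all these genes are uncertain as levels of their transcripts. The sum of mt-Nd3 and Gm28438 was 24.3, 23.9 and 45.3 CPM in flox and 33.2, 57.9 and 61.2 CPM in KO and overlapped.
In a fit of the 6 chow libraries alone, Gm28438 (5.81, adjusted p = 0.00571) and mt-Nd3 (-4.26, adjusted p = 0.0243) were the 2 genes that passed. On HFSC the pair split the libraries in the same way with 1 exception. mt-Nd3 was at 52.7, 56.4 and 37.1 CPM in HFSC flox replicates 1 to 3 and at 1.38 to 1.61 in HFSC KO, and HFSC flox replicate 4 was at 2.41 CPM. Gm28438 was at 2.80, 1.32 and 2.22 CPM in the first 3 and at 48.2 CPM in the library labelled HFSC flox replicate 4, within the 31.2 to 48.5 CPM of HFSC KO. On this pair of genes that library went with the KO libraries, against its label. What sets the pair apart was not tested.

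**Figure D4:**
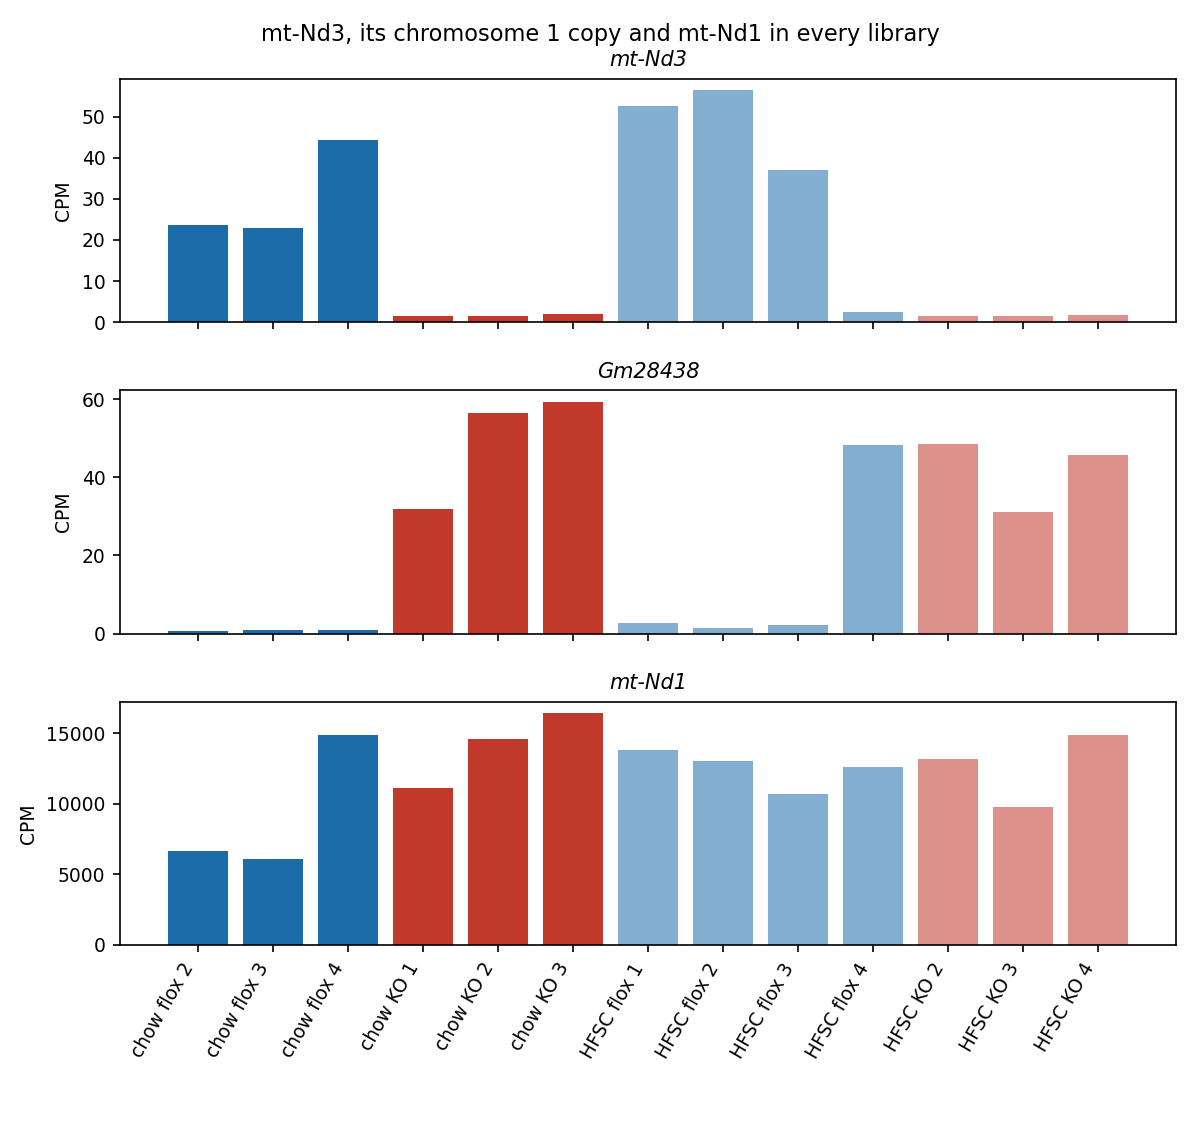
Levels of mt-Nd3, of its chromosome 1 copy Gm28438 and of mt-Nd1 in all 13 libraries (CPM, linear axes from 0; flox blue, KO red, HFSC lighter). mt-Nd3 is at 23 CPM or more where Gm28438 is under 3 CPM, and at 2.41 CPM or less where Gm28438 is at 31.2 CPM or more.

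Next to the deleted hairpins, Nr6a1os, the transcript antisense to the receptor gene Nr6a1, rose from 0.544, 0.935 and 1.07 CPM to 2.52, 2.52 and 1.42 CPM (1.36 ± 0.35, adjusted p = 0.0305). With library totals it did not pass (1.04, adjusted p = 0.0593), nor without flox replicate 2, flox replicate 3 or any 1 of the KO libraries (adjusted p = 0.0755 to 0.122). Nr6a1 itself was at 3.84, 3.61 and 5.68 CPM in flox and at 7.74, 7.47 and 7.07 in KO without overlap, and did not pass (0.77 ± 0.24, adjusted p = 0.0587). The 2 genes overlap on opposite strands, and the use of strand in counting is not given, so reads of the pair cannot be told apart. Olfml2a, a neighbouring gene, did not pass (-1.14 ± 0.37, adjusted p = 0.0621).
Genes with a match to the shared seed were counted in the longest annotated 3′ untranslated region (UTR) of 13795 tested genes. The match searched was TGAATGT, the complement of bases 2 to 8, on the transcript strand only. It occurred once in 2054 genes (14.9%) and at least 2 times in 522 (3.78%). Of the 522 genes 12 were called higher (2.3%) and 53 lower (10.2%), of the 2054 genes 31 (1.51%) and 233 (11.3%), and of the 11219 without a match 155 (1.38%) and 1313 (11.7%). The medians were 0.04, 0.01 and -0.01 on the log2 scale. Genes with more matches had longer UTRs, at medians of 3772, 2174 and 987 bases. In the top of 4 equal classes of UTR length, the 396 genes with at least 2 matches, the 958 with 1 and the 2094 without had medians of 0.04, 0.05 and -0.00. A match is a description of the sequence and not a site shown to be used.
Among 32 tested genes described as miR-181 targets none rose with all libraries, and 2 fell with overlap, Ptpn22 (-1.67 ± 0.48) and Trim2 (-1.08 ± 0.32). Bcl2 (0.57 ± 0.28, adjusted p = 0.172) and Nlk (0.37 ± 0.13, adjusted p = 0.0826) did not pass. Without flox replicate 4, 11 of the 32 passed as higher and 6 as lower, so the count rests on that library.

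The chow differences were set beside HFSC. The HFSC libraries do not enter the chow group means, but they share the estimate of spread behind the chow calls. KO and flox on HFSC did not overlap in 1221 genes on the high side (7.4%) and 876 on the low side (5.31%). Of the 222 higher genes of chow 15 also lay above flox in every library pair on HFSC and 20 lay below. Of the 1216 lower genes 55 lay below and 82 above. Col3a1 had a log2 fold change of -0.42 on HFSC against -3.73 on chow, Aldh6a1 one of -0.03 against 0.72, and Lpl one of 0.04 against 0.81. The difference between the diets did not pass for any gene in either direction (0%, edgeR interaction test, smallest adjusted p = 0.0625). At an unadjusted p under 0.05 it did for 1810 genes more positive and 3001 more negative on chow, and DESeq2 called 612 and 1351. Without chow flox replicate 4 the edgeR test called 2737 and 3191.
All 6 KO libraries lay above all 7 flox libraries of both diets in 24 genes (0.145%) and below them in 18 (0.109%), of which 3 and 8 were called on chow. Scand1, a SCAN domain protein, was at 18.5, 16.1 and 10.8 CPM in chow flox and at 25.3, 21.8 and 25.1 in chow KO, with edgeR log2 fold changes of 0.67 ± 0.17 on chow and 0.33 ± 0.15 on HFSC. Dpyd, which degrades pyrimidines, had 0.66 ± 0.18 on chow and 0.46 ± 0.16 on HFSC, and Hsd17b10 0.41 ± 0.12 and 0.27 ± 0.11. Fgf18, a growth factor, had -1.61 ± 0.45 and -1.26 ± 0.40, and Lrp12 -0.70 ± 0.18 and -0.41 ± 0.17. None of these genes passed on HFSC alone (adjusted p = 0.303 to 0.487). With library totals Scand1, Dpyd and Hsd17b10 no longer passed on chow.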

How the data were processed

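The authors deposited a table of raw counts per gene for 13 libraries of polyadenylated RNA. Per the submitters' processing notes, reads were trimmed with Trimmomatic 0.36, aligned with STAR 2.5.2b to GRCm38 and counted with featureCounts of Subread 1.5.2. Strand and multi-mapping settings: not given in the sources used here. Of 49315 gene identifiers 49056 matched GENCODE M21. From the counts, edgeR 4.0.16 (filterByExpr, TMM, robust quasi-likelihood F test, 4 group means over all 13 libraries) gave log2 fold changes, standard errors and Benjamini-Hochberg adjusted p-values over 16496 genes, with a threshold of 0.05. CPM use TMM library sizes, and gaps use a prior count of 2. The test was also run on simulated counts, drawn for each gene independently. They held no shift shared by many genes such as that of flox replicates 2 and 3. That run therefore cannot check the calls against such shifts. Genes were named by gap (12 per direction), level (5), 68 gene lists (up to 4 per list and direction by p) and smallest p among overlapping genes, with a minimum mean of 1 CPM for all but locus, muscle core and Cxcr4 axis genes. Other list members are named as such, and the chromosome 1 copies, Gm28438 among them, the genes beyond both diets and the seed counts were added after values were seen. The members and lists were chosen with earlier results of these data known. Library totals, RLE factors, limma 3.58.1 voom, DESeq2 1.42.0, no low-count filter, chow libraries alone, a replicate block and leaving out each chow library were tried. The SE are derived, as the size of the log2 fold change over the square root of the F statistic. They include the spread between libraries, and floors cover counting error only. No 2 replicates agreed within counting noise.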

Additional observations from a re-analysis of the deposited data

Results flagged for a closer look

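In HFSC flox, a group of 4 libraries outside the chow comparison, Gm28438 had 1 library far from the others. Replicate 4 was at 48.2 CPM and the other 3 were at 1.32 to 2.80 CPM, and the gap to the nearest library was 0.968 of the range of the group. Chance marks about 1 in 20 groups of this size. The same library was at 2.41 CPM for mt-Nd3, against 37.1 to 56.4 CPM in the other 3. What sets it apart was not tested.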

How the results depend on the processing

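RLE factors in place of TMM gave 242 higher and 1630 lower genes. Library totals gave 80 higher and 3016 lower, and 78 higher without overlap. Without the low-count filter 129 were higher. limma voom with quality weights gave 4848 and 5051, and DESeq2 828 higher. A fit of the 6 chow libraries alone called 1 higher and 1 lower. Leaving out 1 chow library gave 0 to 3534 higher and 0 to 3727 lower genes, and 0 to 2737 and 0 to 3191 for the interaction, where DESeq2 gave 612 and 1351. Of the 1898 calls, 381 passed in each of the 3 such fits that had any call. With the replicate block 0 genes passed in either direction (smallest adjusted p = 0.0529), also for the interaction, a block chosen there after seeing the data. Only numbers 2 and 3 are shared by the chow groups. The deviations of same-numbered libraries correlated at r = -0.0318 and -0.341, so the numbers were not read as a pairing. No result named changed direction with a call. The causes were not tested.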
